A study of Mus musculus with 6 samples.

Results

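The DOCK family exchange factors are 9 genes, Dock1, Dock2, Dock4, Dock5, Dock6, Dock8, Dock9, Dock10 and Dock11, taken by symbol from the 23359 symbols of an RNA sequencing table of mouse bone marrow. Each of the 9 symbols stood on a single row. Of the 6 libraries, NULL A, B and C came from Gab2 -/- marrow and WT A, B and C from Gab2 +/+ marrow. The sources used here do not give strain, sex, age, the way the Gab2 allele was made, whether the cells carried BCR-ABL1, or any treatment or sorting. The series title names GAB2, an adaptor protein that recruits signalling enzymes, in blood cell transformation by the kinase BCR-ABL1, and the groups ask which transcripts differ when Gab2 is missing. No label ties a library to an animal or culture, so errors and p-values reflect the spread among these libraries alone, which may be technical. The 9 genes were selected on their FPKM difference between NULL and WT, which was already known, so that difference is a description for them and is given without p-values.

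DOCK proteins switch on small GTPases by making them release GDP and take up GTP. They do so through a DOCK homology region unrelated to the catalytic domain of the larger Dbl family, and a further DOCK homology region binds phosphoinositides made by phosphatidylinositol 3-kinase at the membrane. Rac and Cdc42, the GTPases they act on, drive actin assembly, cell migration and contacts between immune cells. Here Dock1, Dock2, Dock5 and Dock4 are called Rac-type, since Rac is their best known substrate and ELMO scaffolds bind them. Dock8, Dock9, Dock10 and Dock11 are called Cdc42-type, although Dock10 has also been linked to Rac, and Dock6, reported to act on both GTPases, is kept apart.

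Expression was given as FPKM, fragments scaled to transcript length and to the mapped fragments of the library, so levels can be set beside each other between genes. Depth, judged from the steps between low values, was roughly 17.8 M to 68.4 M fragments a library. Gab2 itself measured 0.123, 0.145 and 0.203 FPKM in NULL A, B and C and 3.33, 3.10 and 2.43 FPKM in the WT libraries in the same order, which fits the labels (log2 change of FPKM + 1 of -1.77, SE 0.104, limma adjusted p = 1.83e-05; exact two-sided permutation p = 0.1, the smallest that 3 against 3 allow). The marrow label did not match the transcripts of a mixed marrow. The 12 B-lineage markers summed to between 4162 and 4228 FPKM in NULL and between 3075 and 3281 FPKM in WT, while the granulocyte markers present summed to at most 0.210 FPKM in NULL and 0.226 FPKM in WT, with Elane, S100a8 and S100a9 at 0 throughout. Of 9916 genes averaging 1 FPKM or more, 65.3% were called by limma (adjusted p under 0.05), with 2311 up and 4168 down in NULL. That balance depended on scaling. It was 3143 up and 3242 down when libraries were rescaled by the median of ratios, 2824 up and 3278 down when quantile normalized, and 2023 up and 1003 down when brought to a common total. Across tested genes the median log2 change was -0.13 as deposited, and 0.0098, -0.030 and 0.11 under these 3 rescalings.

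The B-lineage libraries transcribed 5 DOCK genes above 1 FPKM in every library, namely Dock2, Dock8, Dock9, Dock10 and Dock11. In WT the order of the mean levels was Dock10, Dock2, Dock11, Dock8, Dock9, Dock5, Dock6, Dock4 and Dock1. In NULL Dock9 moved up beside Dock10 at the head of the family, and the remaining order was Dock2, Dock11, Dock8, Dock5, Dock6, Dock4 and Dock1. On GRCm38 the genes lie apart, with Dock9 at chr14:121542046-121797837 and Dock5 at chr14:67752135-67933442, Dock10 at chr1:80501073-80758527, Dock11 at chrX:35888832-36076562, Dock8 at chr19:24999534-25202432, Dock2 at chr11:34226815-34783892, Dock4 at chr12:40445952-40846874, Dock6 at chr9:21799860-21852635 and Dock1 at chr7:134670654-135173639. Neighbours in level whose libraries overlapped were Dock9 and Dock10 in NULL, Dock6 and Dock4 in NULL, and Dock8 and Dock9 in WT. Of the 5 members above the level filter, 4 passed the limma threshold, where 65.3% of all tested genes did. They were 3 higher in NULL (23.3% of tested genes) and 1 lower (42.0%). With an absolute log2 change of at least 1 as well, Dock9 alone of the 5 was called higher (3.94% of tested genes) and 0 were called lower (5.99%). The same 4 had groups that did not overlap (71.0% of tested genes), 3 higher (26.0%) and 1 lower (45.1%). In a fit without the level filter 7 of the 9 passed, 5 higher and 2 lower, where 43.6% of 16712 genes passed. The groups did not overlap for 7 of the 9 members, 5 higher and 2 lower, against 53.3% of the 16712 symbols above 0 in any library, 23.4% higher and 30.0% lower. Nothing is read from these counts, since the same difference was known when the genes were brought together. In bulk samples fewer cells of a type and less RNA per cell cannot be told apart.

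**Figure D1:**
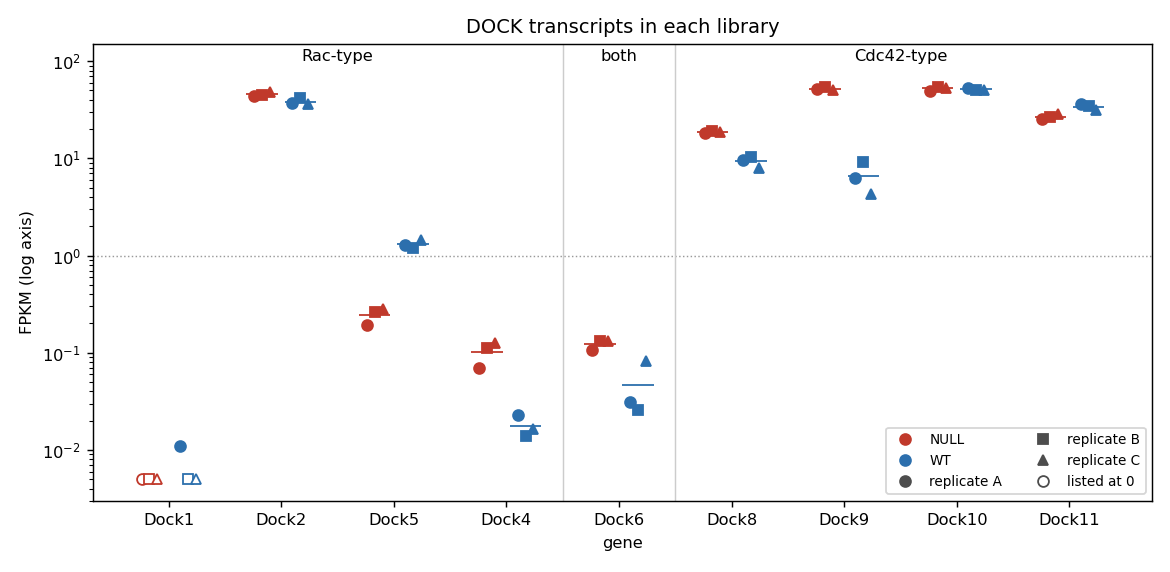
FPKM (log axis) of the 9 DOCK genes in the 3 NULL libraries (red, left of each pair) and the 3 WT libraries (blue), with bars at the group means and open symbols for values listed at 0. Dock9 lies between 49.9 and 54.5 FPKM in NULL and between 4.32 and 9.27 FPKM in WT, while Dock10 lies close to 50 FPKM in every library.

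Among the Cdc42-type members, Dock9 made the widest difference. Dock9 (also called zizimin-1), a Cdc42 exchange factor studied mostly in dendrite growth, read 51.2, 54.5 and 49.9 FPKM in NULL A, B and C and 6.29, 9.27 and 4.32 FPKM in the WT libraries in the same order. Every NULL library was at least 5.38-fold above the highest WT library, and the WT libraries differed among themselves far more in proportion than the NULL libraries did. The mean was 51.8 ± 2.38 FPKM in NULL and 6.62 ± 2.49 FPKM in WT (SD, n = 3 each), a 7.83-fold difference and a log2 change of FPKM + 1 of 2.84 (SE 0.208). It ranked 18 among the positive log2 changes of the 9916 tested genes. The change lay between 2.31 and 3.09 under the 17 alternative settings of the fit, and without WT C, the lowest library, it was 2.61.

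Dock8, an exchange factor for Cdc42 whose loss in humans causes a combined immunodeficiency, was also higher in every NULL library. It read 18.4, 19.0 and 18.5 FPKM in NULL A, B and C and 9.62, 10.4 and 7.99 FPKM in the WT libraries in the same order. The groups did not overlap, and the NULL libraries lay closer together than the WT libraries. The mean was 18.6 ± 0.362 FPKM in NULL and 9.35 ± 1.25 FPKM in WT (SD, n = 3 each), a 1.99-fold difference and a log2 change of 0.93 (SE 0.0933). Under the 17 alternatives it stayed between 0.72 and 1.19.

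Dock10 and Dock11, the nearest relatives of Dock9 in the family, did not show a difference of that size. Dock10, known as an interleukin-4-induced gene of B cells, read 49.8, 54.1 and 52.9 FPKM in NULL A, B and C and 52.4, 50.5 and 51.0 FPKM in the WT libraries in the same order. The libraries of the groups were interleaved, with means of 52.3 ± 2.25 FPKM in NULL and 51.3 ± 0.977 FPKM in WT (SD, n = 3 each) and a log2 change of 0.03 (SE 0.0622) on the deposited scale. The change was 0.18, 0.42 and 0.30 under median-of-ratios, quantile and common-total scaling. Dock11, a Cdc42 exchange factor of lymphoid tissue, was on the low side in NULL at 25.1, 26.4 and 28.4 FPKM, against 36.0, 34.9 and 31.4 FPKM in the WT libraries in the same order. Its log2 change was -0.34 (SE 0.0780) as deposited, but -0.19, -0.03 and -0.07 under median-of-ratios, quantile and common-total scaling. Within each NULL library Dock9 stood at 0.942 to 1.03 times the level of Dock10, against 0.0848 to 0.183 times in WT, a ratio that scaling a whole library cannot alter.

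**Figure D2:**
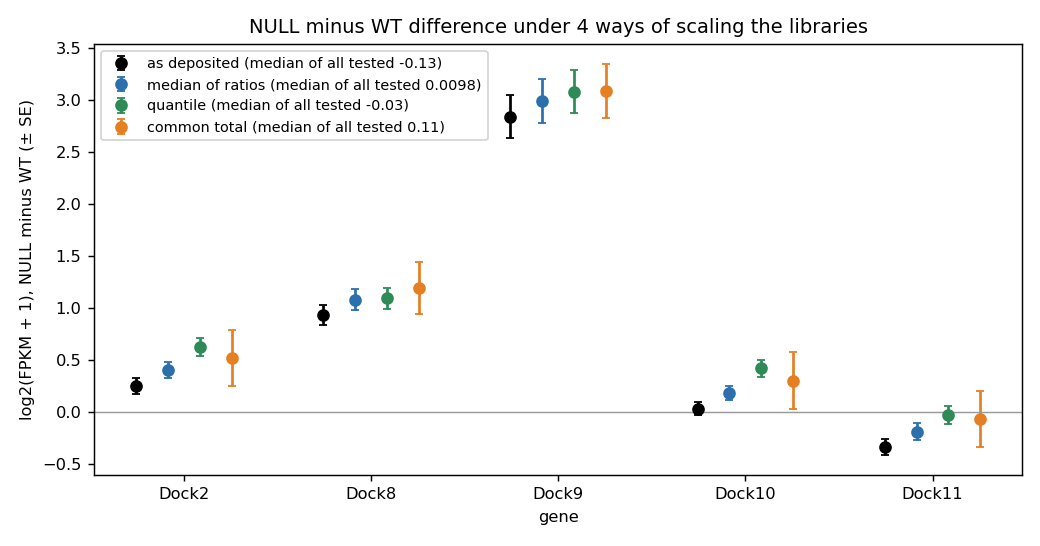
Difference in log2(FPKM + 1), NULL minus WT, with its standard error for the 5 tested members on the deposited scale and after 3 rescalings of the libraries. Dock8 and Dock9 stay well above 0 in each, whereas Dock11 moves to -0.03 after quantile normalization and Dock10 to 0.42.

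The stretch upstream of the start shows how these genes differ where transcription begins. RefSeq on GRCm38.p6 gave windows for 8 of the 9 members, 11 in all, and the 250 bases before the start are printed for Dock9, Dock8, Dock10 and Dock11, the members with the contrasting levels above. Dock9 has 3 annotated starts, of which the upstream-most and the middle are shown. Capitals mark every match, on either strand, to 5 short motifs: the GC box GGGCGG, the ETS core CCGGAA, the EBF1 core CCCNNGGG, the FOXO core GTAAACA and the STAT core TTCNNNGAA. The EBF1 and ETS matches did not overlap any GC box in these windows.
Dock9, first start, chr14:121797735-121797984, minus strand: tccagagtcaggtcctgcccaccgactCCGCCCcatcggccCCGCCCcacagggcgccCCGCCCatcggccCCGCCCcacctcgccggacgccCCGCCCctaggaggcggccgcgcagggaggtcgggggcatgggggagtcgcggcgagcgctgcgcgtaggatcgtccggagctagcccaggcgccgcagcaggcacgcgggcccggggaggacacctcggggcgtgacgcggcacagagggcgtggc
Dock9, second start, chr14:121738930-121739179, minus strand: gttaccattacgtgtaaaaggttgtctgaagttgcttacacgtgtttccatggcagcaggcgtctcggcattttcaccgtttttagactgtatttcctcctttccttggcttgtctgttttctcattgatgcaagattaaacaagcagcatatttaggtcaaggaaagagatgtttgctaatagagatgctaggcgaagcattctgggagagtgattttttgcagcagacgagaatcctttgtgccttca
Dock8, chr19:24999279-24999528, plus strand: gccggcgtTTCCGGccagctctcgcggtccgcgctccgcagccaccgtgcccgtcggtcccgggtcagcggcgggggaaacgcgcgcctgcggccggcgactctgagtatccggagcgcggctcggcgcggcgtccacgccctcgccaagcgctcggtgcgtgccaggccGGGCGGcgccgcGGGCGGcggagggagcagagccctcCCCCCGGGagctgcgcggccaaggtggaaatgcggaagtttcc
Dock10, first start, chr1:80758554-80758803, minus strand: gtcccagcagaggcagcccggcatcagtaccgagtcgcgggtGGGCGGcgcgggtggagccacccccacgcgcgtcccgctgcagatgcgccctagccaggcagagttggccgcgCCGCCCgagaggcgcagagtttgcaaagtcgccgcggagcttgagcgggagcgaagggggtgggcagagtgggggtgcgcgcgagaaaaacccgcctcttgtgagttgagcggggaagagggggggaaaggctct
Dock11, chrX:35888582-35888831, plus strand: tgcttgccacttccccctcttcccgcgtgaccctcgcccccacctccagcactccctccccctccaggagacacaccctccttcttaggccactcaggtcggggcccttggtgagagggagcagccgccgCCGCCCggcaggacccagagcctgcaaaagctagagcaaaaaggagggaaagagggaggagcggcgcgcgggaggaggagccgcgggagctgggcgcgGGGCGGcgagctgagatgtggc

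The first Dock9 window held 5 GC boxes, all as CCGCCC, with 34 CG pairs and 78.8% G and C, while its second window held none of the 5 motifs, with 7 CG pairs and 42.4% G and C. Dock8 had 43 CG pairs, 2 GC boxes, 1 ETS core and 1 EBF1 core. The first windows of Dock10 and Dock11 had 2 GC boxes each, with 27 and 18 CG pairs. Such starts did not set these members apart. Dock1, Dock4 and Dock6, all of very low level, held 3, 2 and 5 GC boxes with 29, 24 and 20 CG pairs. Dock2 held 0 GC boxes and 4 CG pairs. The median of all windows was 6 CG pairs and 52.4% G and C. Across 32817 windows of the same length 32.7% held a GC box, 12.0% the ETS core, 11.8% the EBF1 core, 7.01% the STAT core and 3.16% the FOXO core. No member's window matched the FOXO or the STAT core. These matches describe letters only, and gene-level FPKM do not show which Dock9 start was used.

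The Rac-type members were carried by Dock2. Dock2, the Rac exchange factor that lymphocytes need to migrate towards chemokines, read 43.3, 44.6 and 48.6 FPKM in NULL A, B and C and 36.8, 41.6 and 36.2 FPKM in the WT libraries in the same order. The lowest NULL library lay just above the highest WT library, at 1.04 times its value. The mean was 45.5 ± 2.76 FPKM in NULL and 38.2 ± 2.96 FPKM in WT (SD, n = 3 each), with a log2 change of 0.25 (SE 0.0793). The change lay between 0.20, without NULL C, and 0.62, after quantile normalization, under the 17 alternative settings of the fit. Fam196b, annotated on the opposite strand within the span of Dock2, averaged 1.14 FPKM, and the sources used here do not say whether counting used strand.

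Dock5 was the member that was lower in NULL by the largest factor. Dock5, a Rac exchange factor that osteoclasts need to resorb bone in mice, read 0.192, 0.262 and 0.281 FPKM in NULL A, B and C and 1.27, 1.20 and 1.43 FPKM in the WT libraries in the same order. The groups were far apart, and the fragments behind these values numbered roughly 60 to 129 in NULL and 210 to 670 in WT. The WT mean was 5.30 times the NULL mean, 0.245 ± 0.0464 FPKM in NULL and 1.30 ± 0.116 FPKM in WT (SD, n = 3 each). Its mean over the 6 libraries was under 1 FPKM, so it entered only the fit without a filter, with a log2 change of FPKM + 1 of -0.88 (SE 0.0519), which understates the change of so low a gene.

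The remaining Rac-type members were close to silent. Dock4, a Rac exchange factor of the second ELMO-binding subfamily, read 0.0692, 0.112 and 0.125 FPKM in NULL A, B and C and 0.0230, 0.0139 and 0.0166 FPKM in the WT libraries in the same order, about 22 to 41 fragments in NULL and 2 to 10 in WT. Dock1, the founding member, which works with ELMO and CRK in the engulfment of dying cells, was listed at 0 in all NULL libraries and in WT B and C, and at 0.0109 FPKM in WT A, which is about 4 fragments. It lies 37.4 Mb from Gab2 on chromosome 7. Dock6, the member with both substrates, whose loss in humans causes a syndrome of limb and scalp defects, read 0.106, 0.132 and 0.131 FPKM in NULL A, B and C and 0.0312, 0.0258 and 0.0820 FPKM in the WT libraries in the same order. Dock4 and Dock6 were thus higher in each NULL library than in any WT library, at levels of at most 0.132 FPKM.

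Markers of rarer cell types were low in both groups. The summed mast cell and basophil markers were 0.892 to 2.54 FPKM in NULL and 0 to 0.0400 FPKM in WT, with all 6 genes higher in their NULL mean. The 8 monocyte and macrophage markers summed to 2.70 to 3.84 FPKM in NULL and 0.844 to 0.966 FPKM in WT, most of it Lyz2, with Cd14 at 0 throughout. The megakaryocyte markers summed to 0.415 to 0.765 FPKM in NULL and 0.0219 to 0.138 FPKM in WT. The part of these cells in the levels of Dock4 and Dock6 was not tested.

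Added up, the 9 genes made more transcript in NULL, and Dock9 supplied most of the excess. The Cdc42-type sum was 144.4, 154.1 and 149.7 FPKM in NULL A, B and C and 104.3, 105.1 and 94.7 FPKM in the WT libraries in the same order. The means were 149.4 ± 4.85 FPKM in NULL and 101.3 ± 5.79 FPKM in WT (SD, n = 3 each), 48.1 FPKM apart, of which Dock9 made up 45.2 FPKM, Dock8 9.28 FPKM and Dock11 -7.41 FPKM. Without Dock9 the Cdc42-type sum was 97.6 ± 3.74 FPKM in NULL and 94.7 ± 3.93 FPKM in WT. The Rac-type sum was 43.5, 45.0 and 49.0 FPKM in NULL A, B and C and 38.1, 42.8 and 37.7 FPKM in the WT libraries in the same order. On the log2 scale the ratio of NULL to WT means was 0.56 for the Cdc42-type and 0.21 for the Rac-type sum. Under median-of-ratios, quantile and common-total scaling it was 0.72, 0.91 and 0.82 for the Cdc42-type and 0.37, 0.59 and 0.49 for the Rac-type sum.

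The make-up of the family differed too. Cdc42-type members held 76.5 ± 1.06% of the summed DOCK FPKM in NULL and 71.9 ± 1.15% in WT (SD, n = 3 each), and the lowest NULL library (75.3%) was above the highest WT library (73.2%). Dock9 alone held 25.1 to 27.3% in NULL and 3.26 to 6.26% in WT. Without Dock9 the Cdc42-type sum had a log2 ratio of NULL to WT means of 0.04, below the 0.21 of the Rac-type sum. The higher share of the Cdc42-type members in NULL thus rested on Dock9. Dock10 held 26.8% on average in NULL and 36.5% in WT, Dock11 13.6% in NULL and 24.2% in WT, and Dock2 23.3% in NULL and 27.1% in WT.

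**Figure D3:**
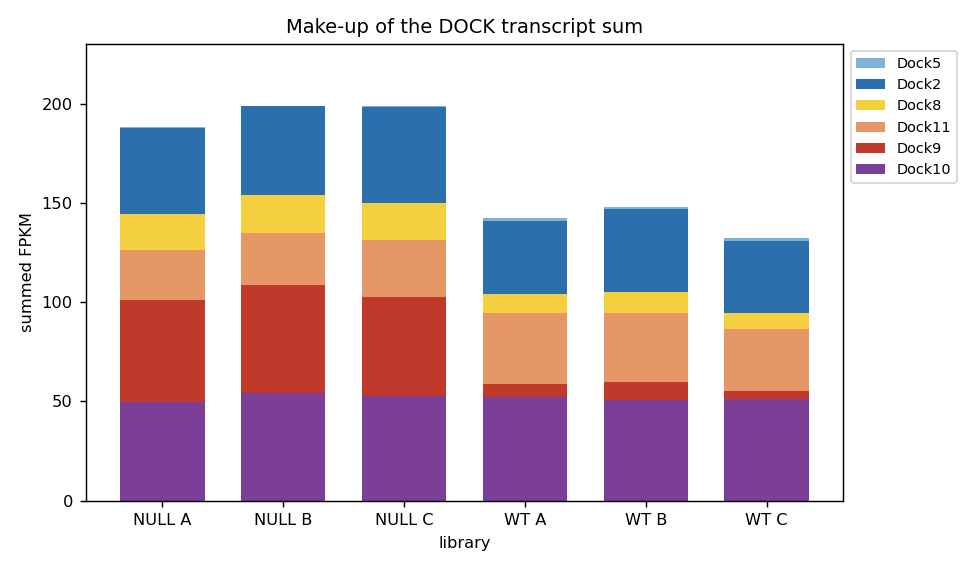
Stacked FPKM of 6 DOCK genes in each library, NULL at the left and WT at the right; Dock1, Dock4 and Dock6, each under 0.2 FPKM, are left out. The Dock9 block measures 49.9 to 54.5 FPKM in NULL and 4.32 to 9.27 FPKM in WT, while the Dock10 block keeps its height.

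Markers of B-cell stage moved with Dock9. Of the 12 B-lineage markers 9 rose and 1 fell, where 23.3% of all tested genes were called higher and 42.0% lower, and their median log2 change was 0.74 beside -0.13 for all tested genes. The terminal transferase Dntt, active while heavy-chain genes are joined, read 165.1, 155.3 and 161.6 FPKM in NULL A, B and C and 34.5, 49.5 and 16.3 FPKM in the WT libraries in the same order. The recombinase gene Rag1 read 6.93, 7.01 and 7.11 FPKM in NULL and 1.25, 1.55 and 0.255 FPKM in WT, and the transcription factor Ebf1 101.3, 108.4 and 99.1 FPKM in NULL and 54.3, 58.6 and 47.0 FPKM in WT. In WT all of Dock9, Dock8, Dntt, Rag1 and Ebf1 were highest in library B and lowest in library C. Blnk, the linker of B-cell receptor signalling, read 174.0, 172.2 and 166.2 FPKM in NULL and 72.7, 83.1 and 59.0 FPKM in WT. Whether a shift in B-cell stage takes part in the Dock9 and Dock8 levels was not tested.

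**Figure D4:**
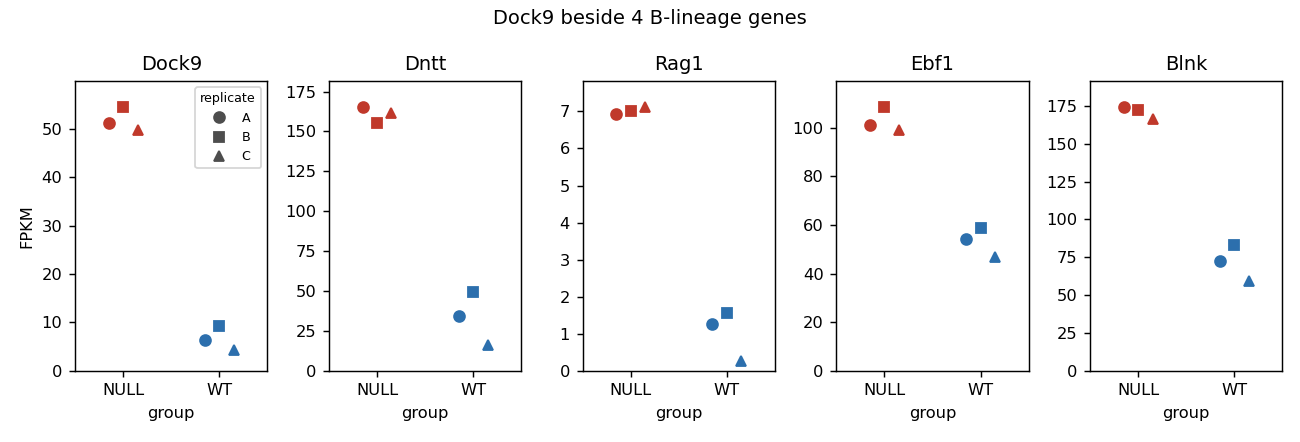
FPKM of Dock9 and of the B-lineage genes Dntt, Rag1, Ebf1 and Blnk in the 3 NULL libraries (red) and the 3 WT libraries (blue), with a marker shape for each replicate letter and each axis starting at 0. All 5 are higher in every NULL library, with WT B the highest and WT C the lowest of the WT libraries.

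The tested genes whose levels followed Dock9 most closely, by Pearson's r of log2(FPKM + 1) over the 6 libraries, were Steap4, Erg, Ssh3, Ptpn14 and 8430410A17Rik, each with r of at least 0.9997. Since the libraries fall into 2 groups, r mostly reflects the step between them, and 227 tested genes reached 0.99. The transcript 8430410A17Rik had almost the levels of Dock9 itself, at 51.8, 55.4 and 52.8 FPKM in NULL and 6.66, 9.05 and 4.54 FPKM in the WT libraries in the same order. Erg, an ETS transcription factor, averaged 68.8 ± 2.09 FPKM in NULL and 28.7 ± 4.22 FPKM in WT, and the metalloreductase gene Steap4 9.57 ± 0.266 FPKM in NULL and 0.662 ± 0.476 FPKM in WT. The slingshot phosphatase gene Ssh3 averaged 4.19 ± 0.0702 FPKM in NULL and 1.45 ± 0.326 FPKM in WT, and the tyrosine phosphatase gene Ptpn14 3.53 ± 0.0849 FPKM in NULL and 0.406 ± 0.268 FPKM in WT (SD, n = 3 each).

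The GTPases Cdc42 and Rac1, on which DOCK proteins act, were lower in NULL on the deposited scale, calls that 2 of the 3 rescalings did not keep. Cdc42 averaged 123.5 ± 6.42 FPKM in NULL and 190.2 ± 5.18 FPKM in WT (log2 change -0.62, SE 0.0713, limma adjusted p = 0.00019). Rac1 averaged 55.6 ± 2.41 FPKM in NULL and 76.5 ± 4.07 FPKM in WT (log2 change -0.45, limma adjusted p = 0.000807). The blood-cell form Rac2 averaged 80.1 ± 6.24 FPKM in NULL and 84.8 ± 6.68 FPKM in WT (SD, n = 3 each) and was not called as deposited. The sign of Rac2 turned under all 3 rescalings, and it was called higher after quantile normalization (0.38, limma adjusted p = 0.00169). The Cdc42 and Rac1 calls held after median-of-ratios rescaling (-0.46 and -0.30) but not after quantile normalization (-0.13 and -0.03) or rescaling to a common total (-0.34 and -0.18).

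Of 14 partners of DOCK proteins 12 were tested, with 3 called higher, 1 lower and 8 not called (median -0.12, and 0.025, 0.16 and 0.14 under median-of-ratios, quantile and common-total scaling). Of all tested genes 23.3% were called higher and 42.0% lower as deposited. Elmo1, the scaffold through which Dock2 reaches Rac in blood cells, averaged 13.1 ± 0.282 FPKM in NULL and 20.8 ± 0.810 FPKM in WT (SD, n = 3 each; log2 change -0.62, SE 0.0599, limma adjusted p = 8.73e-05), a call lost only after rescaling to a common total (-0.36) among the alternatives tried. The genes called higher were the adaptor gene Nedd9, the kinase gene Stk4 and Lrch1, by 0.30, 0.61 and 0.38 on the log2 scale as deposited, named after their values were seen. The adaptors Crk and Crkl, which bring Dock1 to the membrane, and Was and Wipf1, the actin regulators tied to Dock8, were not called, and are also named after their values were seen.

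The Dbl family, the other source of exchange factors for Rac and Cdc42, had genes called in both directions. Of 32 genes 17 were tested, 4 higher and 6 lower (median -0.019), a balance of 4 and 5, 7 and 5, and 3 and 2 under median-of-ratios, quantile and common-total scaling (medians 0.13, 0.068 and 0.25). Beside these stood 23.3% of all tested genes called higher and 42.0% called lower as deposited. Swap70, a phosphoinositide-binding Rac exchange factor of B cells, had the largest change of the list, at 11.8 ± 0.323 FPKM in NULL and 27.0 ± 5.53 FPKM in WT (log2 change -1.11, SE 0.128, limma adjusted p = 0.00019), and it passed under each of the 3 rescalings. Its relative Def6 and the Rac factor Tiam1, chosen after their values were seen, had log2 changes of -0.79 and -0.62 on the deposited scale. The other genes called lower were Ect2, Prex1 and Itsn2, at -0.91, -0.42 and -0.16. The 4 called higher were Fgd3, Fgd6, Plekhg2 and Vav2, at 0.57, 0.43, 0.39 and 0.27. These too are named after their values were seen. The widely used lymphoid factor Vav1, likewise chosen afterwards, was not called, at 29.4 ± 1.34 FPKM in NULL and 32.7 ± 0.905 FPKM in WT (SD, n = 3 each).

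Among 21 tested GTPase-activating proteins and dissociation inhibitors 7 were higher and 3 lower (median 0.10), and this balance was 11 and 2, 9 and 2, and 6 and 0 under median-of-ratios, quantile and common-total scaling. No member of this list reached a log2 change of 1. The largest was that of Hmha1, chosen after its values were seen, at 44.2 ± 4.63 FPKM in NULL and 21.7 ± 2.23 FPKM in WT (log2 change 0.99). Of 34 tested effectors 7 were higher and 8 lower (median -0.015), a balance of 12 and 5, 16 and 9, and 7 and 3 under the same rescalings. Tnk2, a tyrosine kinase that binds active Cdc42, averaged 2.14 ± 0.297 FPKM in NULL and 5.44 ± 0.889 FPKM in WT (SD, n = 3 each; log2 change -1.03, SE 0.119, limma adjusted p = 0.000189) and passed under each of the 3 rescalings. No list was tested as a set, and each share called stood beside 65.3% of all tested genes, 23.3% higher and 42.0% lower. Across all tested genes the balance was 3143 and 3242, 2824 and 3278, and 2023 and 1003 under the same rescalings.

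**Figure D5:**
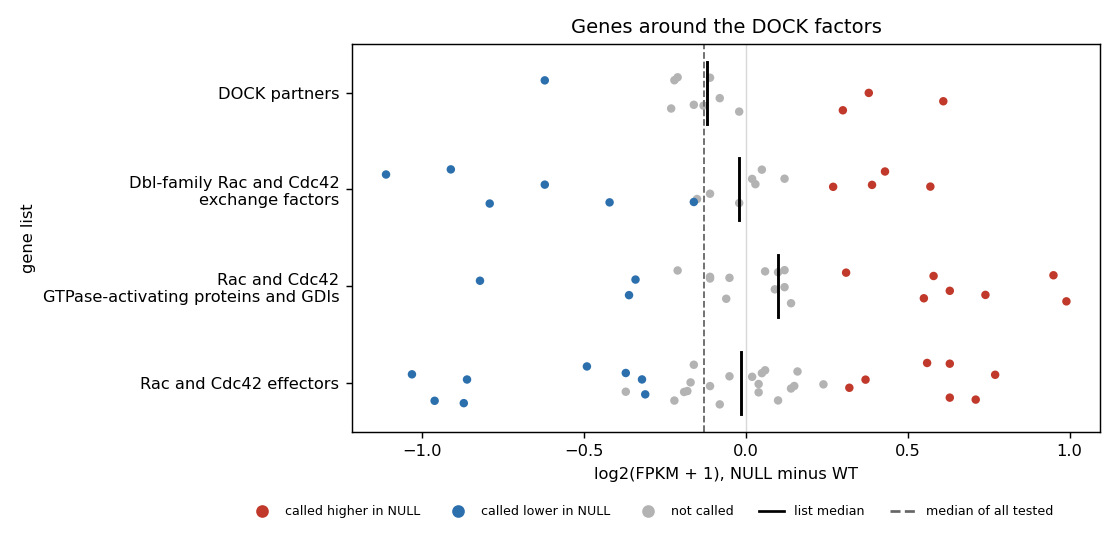
Difference in log2(FPKM + 1), NULL minus WT, of each tested gene in 4 lists around the DOCK factors, coloured by the limma call, with a bar at each list's median and a dashed line at the median of all tested genes (-0.13). The medians lie between -0.12 and 0.10, and all 4 lists have genes called on both sides.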

How the data were processed

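Stranded libraries of polyadenylated RNA were read from both ends, per the labels' protocols. The unit is FPKM per gene symbol, computed and deposited by the authors. The submitters' processing notes name Bowtie, Cufflinks, mm10 and GRCm38, without versions or roles. Neither the annotation nor a scaling step between libraries is stated in them. The table of the whole series was used, and it differed from the library tables in 0 of 143088 values. Of 256 repeated symbols, the highest row by mean was used. Since FPKM are not counts, limma 3.58.1 (R 4.3.3) was fitted to log2(FPKM + 1) for the 9916 genes averaging 1 FPKM or more, with a trended prior and Benjamini-Hochberg adjustment of its two-sided p-values, after being tested on simulated data. Fold changes on that scale understate those of low genes. Fragment numbers are approximations from the commonest step among low values and GENCODE vM21 transcript lengths, and support no interval. GENCODE positions are on GRCm38, and promoter windows are RefSeq's on GRCm38.p6. Alternatives changed the pseudocount, filter, scaling, prior, block, repeated symbols, threshold and libraries. The members, gene lists and motifs were chosen with earlier results of these data known. Named genes are the members, Gab2, Rac1, Rac2, Cdc42, Elmo1, up to 6 genes a pathway list called with an absolute log2 change of at least 1, the 5 genes most like Dock9, and markers; others are marked as chosen after their values were seen. Some genes and a gene list are not reported here.

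Markers were listed for B-lineage, granulocyte, monocyte and macrophage, T and NK, dendritic, erythroid, megakaryocyte, mast cell and basophil, and stromal and endothelial cells. T and NK markers summed to 0.370 to 0.466 FPKM in NULL and 0.0955 to 0.255 FPKM in WT, dendritic markers to 4.86 to 6.57 FPKM in NULL and 8.65 to 14.0 FPKM in WT, mostly Bst2, erythroid markers to 0.102 to 0.242 FPKM in NULL and 0.189 to 0.325 FPKM in WT, and stromal and endothelial markers to 24.7 to 25.6 FPKM in NULL and 10.6 to 11.6 FPKM in WT, mostly Pecam1.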

Additional observations from a re-analysis of the deposited data

How the results depend on the processing

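Among the members, whose differences are descriptions, the log2 change lay between 0.72 and 1.19 for Dock8 and between 2.31 and 3.09 for Dock9 under the 17 alternative settings of the fit. Those of the other tested members moved with the scaling as given above. The number of called members was 4 in the fit described above, 7 without a filter on low values, where 9 rather than 5 were tested, and 2 after rescaling to a common total. It was 4 under median-of-ratios and quantile scaling too, but as 4 higher and 0 lower, with Dock10 called and Dock11 not. Without NULL C, WT A or WT C it was 3, since Dock2 was not called. Rescaling to a common total also gave 3026 called genes in all, 2 DOCK partners, 5 Dbl-family factors and 6 GTPase-activating proteins and inhibitors. Quantile normalization gave 25 effectors. A minimum mean of 5 FPKM gave 5 Dbl-family factors and 5 effectors, and no filter 19 Dbl-family factors, since fewer or more genes were tested. The log2 ratio of the Rac-type sums was 0.37, 0.59 and 0.49 and that of the Cdc42-type sums 0.72, 0.91 and 0.82 under median-of-ratios, quantile and common-total scaling. Rac2 turned to 0.08, 0.38 and 0.20 in these cases. The cause was not tested.

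The libraries share letters between the groups, but the deviations of same-letter libraries correlated at 0.0735, 0.355 and 0.133 for A, B and C, so the letters were not taken as pairs, although each library correlated best with its own letter. With the letter as a replicate block 5844 genes were called, against 6479 without it. Of the 4 members called without it, 3 were called with it, all but Dock2.

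Without a count table the depth behind each value is known only roughly, and values of Dock1, Dock4 and Dock6 rest on at most 49 fragments a library.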
